A study of Mus musculus with 2 samples.

Results

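Reporter-high regulatory T (Treg) cells from rescued mice were compared with reporter-high Treg cells from control mice. A cell was chosen by its own counts, as having 8 or more unique molecular identifiers (UMIs, the tags that count captured RNA molecules) of the red reporter TdTomato, and 553 of all 7024 cells met this rule. Of these, 452 came from the rescued library of 3390 cells and 101 from the control library of 3634 cells. Both libraries held CD4 T cells from spleen and lymph nodes of male C57BL/6 mice with a labelled age of 7 months, sorted in 2 rounds for GFP, which is produced together with Foxp3, and made into 10x Chromium 3′ v3 libraries.

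The control mice had the genotype Foxp3DTR-GFP/yCd4creERT2, in which the Foxp3 locus also makes a fusion of the diphtheria toxin receptor with GFP and Foxp3 is expressed throughout life. The rescued mice had the genotype Foxp3LSL/yCd4creERT2, in which Foxp3 is held off by a loxP-flanked cassette with Thy1.1 and a STOP signal, and excision by Cre restores it and exchanges Thy1.1 for GFP. In both groups the tamoxifen-activated CreERT2 recombinase was driven from the Cd4 gene, the R26 locus carried a tdTomato reporter that Cre switches on, and a single dose of 4-hydroxytamoxifen was given on postnatal day 14. Cells of 5 control mice and of 4 rescued mice were pooled into 1 library per group. Each difference below therefore compares 2 libraries, had no replicate check and was given no test.

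Treg cells are CD4 T cells that hold back immune responses, and the transcription factor Foxp3 is needed for their development and function. Resting Treg cells recirculate through lymphoid organs with the receptor CCR7 and the transcription factors KLF2 and TCF1, the product of Tcf7. Activated Treg cells carry more ICOS, CTLA-4 and TNF-family receptors, and those of tissues often carry the integrin chain CD103, the product of Itgae. Because recombination of the reporter is permanent, a cell that was labelled at treatment passes the label to its descendants.

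The selected cells made up 13.3% of the rescued library (95% Clopper-Pearson interval 12.2 to 14.5%) and 2.78% of the control library (2.27 to 3.37%). The median was 12 reporter UMIs per cell (highest 61) in the rescued cells and 11 (highest 29) in the control cells. The rescued set held 300 cells with 8 to 15 reporter UMIs and 152 cells with 16 or more, and the control set held 80 and 21. Just inside the threshold, 63 rescued and 21 control cells had 8 reporter UMIs, and just outside it 68 rescued and 37 control cells had 7. The selected cells held 65.3% of all reporter UMIs of the rescued library and 21.1% of those of the control library. Since the reporter chose the cells, its level is a description and supports nothing below.

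**Figure D1:**
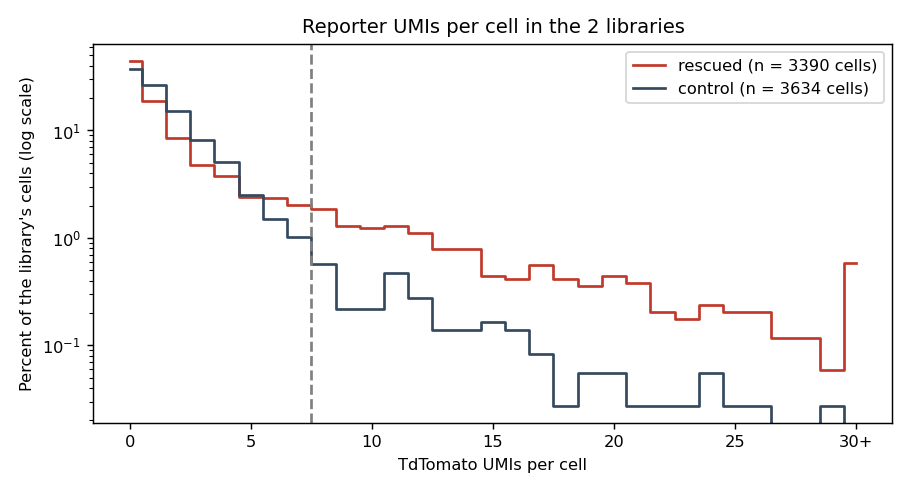
TdTomato UMIs per cell (x axis, 30 or more pooled) against the percent of each library's cells (y axis, log scale) for the rescued library (red) and the control library (grey). The dashed line marks the threshold of 8 UMIs, beyond which lie 452 rescued and 101 control cells.

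The rescued reporter-high cells held 2744609 UMIs in all, and the median cell had 4925 UMIs, with 1760 in the shallowest and 37190 in the deepest, and 2195 detected genes. The control reporter-high cells held 694763 UMIs, and the median cell had 4802, with 2454 and 46139 as extremes, and 2252 genes. Depth was carried unequally, as 18 control cells with over 10000 UMIs held 39.4% of the control UMIs and 48 such rescued cells held 25.3% of the rescued UMIs. The deepest control cell alone held 6.64%. The median mitochondrial share was 8.29% in rescued and 9.05% in control cells. The libraries shared 3 cell barcodes, and none of them lay in the reporter-high sets. Counts were summed over the cells of each set and scaled to a common total (CPM, the count per 1000000 UMIs of the set), and genes were compared by the log2 ratio of rescued to control CPM with a 95% interval that covers counting error only.

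The label of the cells was examined first. All 6 T cell markers were at similar levels in both sets, with a median log2 ratio of 0.03 and levels such as 869 CPM of Cd3e in rescued and 866 CPM in control cells. The Treg markers Ikzf2, Il2ra, Ctla4 and Tnfrsf18 were present in both sets, with Ikzf2 (the transcription factor Helios) at 1777 CPM in rescued and 1637 CPM in control cells. Markers of other cell types had few UMIs. The 9 B cell markers in the table summed to 139 UMIs (50.6 CPM) in rescued and 21 UMIs (30.2 CPM) in control cells, of which Cd79b gave 134 and 21, and 5 of the 9, among them Pax5, were at 0 in both sets. Myeloid markers summed to 13 and 2 UMIs, CD8 T or NK cell markers to 46 and 15, and red blood cell markers to 4 and 0. These UMIs were spread over many cells. At least 1 B cell marker UMI was held by 90 rescued (19.9%) and 18 control cells (17.8%). In all, 45 rescued and 9 control cells held 2 or more UMIs of other cell types' markers.

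Foxp3 (ENSMUSG00000039521, chromosome X, 7573644 to 7595245, GRCm38) had the largest difference of the genes tested. It had 1245 UMIs in the 452 rescued cells (95% Poisson interval 1177 to 1316, 454 CPM) and 34 UMIs in the 101 control cells (23.5 to 47.5, 48.9 CPM). The level was 9.27-fold higher in rescued cells, a log2 ratio of 3.21 (2.72 to 3.75). With each cell thinned to 2000 UMIs, 56.7% of rescued cells (51.9 to 61.3%) and 13.9% of control cells (7.79 to 22.2%) held a Foxp3 UMI, and as counted the shares were 75.7% and 27.7%. The sort aimed at Foxp3-expressing cells alone, so no background share could be measured. No control cell held more than 2 Foxp3 UMIs, against up to 21 in a rescued cell. As each genotype has its own modified Foxp3 locus, the UMIs derive from unlike transcripts, and allele and cell state cannot be told apart.

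Across the 3613 genes with a mean of at least 50 CPM over the 2 sets, the log2 ratios were centred on 0.0065, and their 5th and 95th percentiles were -0.46 and 0.45. At least 2-fold higher in rescued cells were 20 genes (0.554% of those tested), and at least 2-fold lower were 14 (0.387%). The threshold was one of size and not a test, and the 14 lower genes became 7 with 6 or more and 26 with 12 or more reporter UMIs as the rule for cells. The named genes below are those whose counting interval lay farthest from 0 in each direction, 12 higher and 12 lower, and they are taken by role. The values of 1 of the 12 lower genes are not reported.

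**Figure D2:**
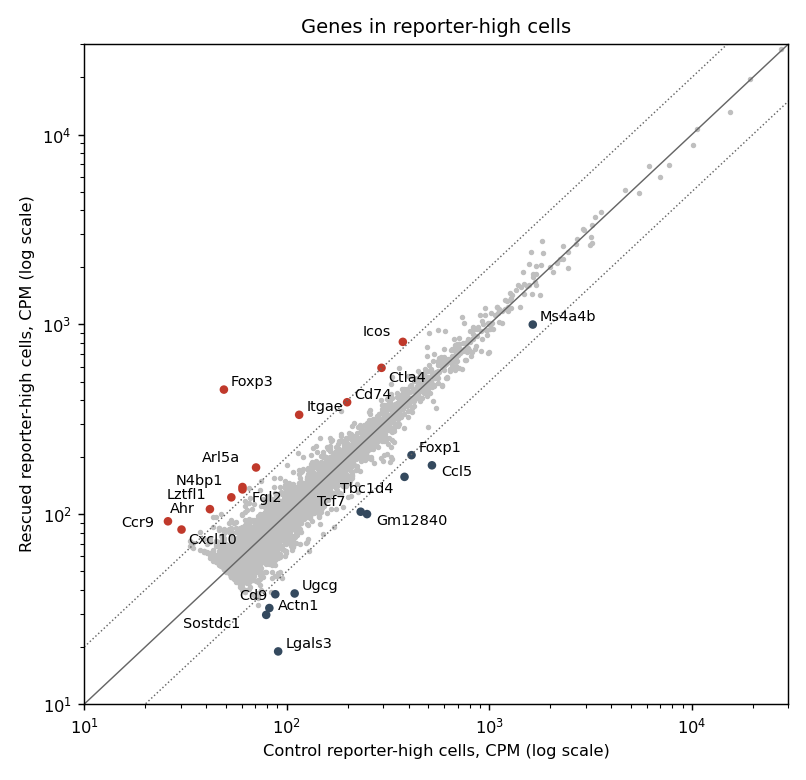
CPM in control (x axis) and rescued (y axis) reporter-high cells for the 3613 genes tested, both on log scales, with the solid line at equal levels and the dotted lines at a 2-fold difference. Genes named by rule are coloured, red where higher and dark where lower in rescued cells, and Foxp3 stands farthest from the line at 454 against 48.9 CPM.

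Genes for adhesion and migration were among the most different. Itgae (chromosome 11, 73090583 to 73147446), the CD103 chain that pairs with the beta 7 integrin to bind E-cadherin, had 917 UMIs (334 CPM) in rescued and 80 UMIs (115 CPM) in control cells, a log2 ratio of 1.54 (1.21 to 1.89). Its UMIs were spread over 259 of the 452 rescued and 33 of the 101 control cells, and with 12 or more reporter UMIs as the rule the ratio was 2.49. Ccr9 (chromosome 9, 123678439 to 123784330), the receptor for the gut chemokine CCL25, had 252 UMIs (91.8 CPM) against 18 UMIs (25.9 CPM), a log2 ratio of 1.83 (1.14 to 2.60). Ccr9 was held by few cells, 47 rescued and 8 control, and the control UMIs lay mainly in 3 cells with 7, 4 and 2. Its log2 ratio was 3.44 without cells over 10000 UMIs and 3.96 when the reporter threshold was scaled to cell depth (15 UMIs per 10000 UMIs of the cell). Lztfl1, a gene of ciliary protein traffic, was also higher, at 123 against 53.3 CPM (1.21, 0.71 to 1.74). Its annotated span (chromosome 9, 123694416 to 123717697) lies inside that of Ccr9 on the other strand. Its ratio was 2.01 in cells of 3000 to 10000 UMIs, and a single control cell held 13 of its 37 control UMIs. Cxcl10, a chemokine that draws CXCR3-bearing cells, had 228 against 21 UMIs (1.46, 0.81 to 2.18), with 2.13 under the scaled threshold. A single rescued cell held 21.9% of its rescued UMIs. The lowest ratios under any alternative were 1.18 for Itgae, 1.23 for Ccr9, 0.88 for Lztfl1 and 0.91 for Cxcl10. With 16 or more reporter UMIs the ratio of Ccr9 was 0.81 (-1.22 to 3.95).

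Icos and Ctla4, neighbouring genes of the CD28 family, were both higher in the rescued cells. Icos (chromosome 1, 60977927 to 61000320), a costimulatory receptor, had 2221 UMIs (809 CPM) in rescued and 260 UMIs (374 CPM) in control cells, a log2 ratio of 1.11 (0.93 to 1.30). Ctla4 (60887000 to 60915832), the inhibitory receptor through which Treg cells strip B7 ligands from antigen-presenting cells, had 591 against 294 CPM, a log2 ratio of 1.01 (0.80 to 1.23). Both were detected in most cells of each set, with an Icos UMI in 380 of 452 rescued and 71 of 101 control cells. Fgl2, a secreted fibrinogen-like effector of Treg cells, had 371 UMIs (135 CPM) against 42 UMIs (60.5 CPM), a log2 ratio of 1.16 (0.70 to 1.66). A single control cell held 13 of its 42 control UMIs, and its lowest ratio under any alternative was 0.74.

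The other higher genes named by rule had diverse roles. Ahr, the aryl hydrocarbon receptor that senses dietary and microbial ligands, was at 106 CPM in rescued and 41.7 CPM in control cells (1.35, 0.80 to 1.95). Its ratio was 2.23 under the scaled threshold, and the lowest under any alternative was 1.28. Arl5a, a small GTPase of the ARF family, was at 176 and 70.5 CPM (1.32), and N4bp1, a regulator of NF-kB signalling, at 139 and 60.5 CPM (1.20). Cd74, the invariant chain of MHC class II, was at 389 and 199 CPM (0.97, 0.71 to 1.24). Cd79b was also higher, at 48.8 against 30.2 CPM, and it held nearly all UMIs of the B cell markers. The immunoglobulin genes Ighm and Igkc were at 1683 against 1028 CPM and at 71.0 against 46.1 CPM. The part of B cell RNA in the Cd74 difference was not tested.

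Several of the lower genes were spread over many cells. Tcf7 (chromosome 11, 52252371 to 52283014), which encodes TCF1, had 283 UMIs (103 CPM) in rescued and 161 UMIs (232 CPM) in control cells, a log2 ratio of -1.17 (-1.45 to -0.88). Foxp1 (chromosome 6, 98925338 to 99522721), a forkhead factor that keeps naive T cells quiescent, had 562 UMIs (205 CPM) against 287 UMIs (413 CPM), a log2 ratio of -1.01 (-1.22 to -0.80). Foxp1 UMIs were found in 79 of the 101 control and 237 of the 452 rescued cells. Actn1, an actin-crosslinking alpha-actinin, was at 32.1 against 82.0 CPM (-1.36), and Cd9, a tetraspanin, at 37.9 against 87.8 CPM (-1.21). Ms4a4b, a membrane protein of the MS4A family abundant in T cells, was the most highly counted of the named genes, at 998 CPM in rescued and 1639 CPM in control cells (-0.72, -0.82 to -0.61).

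Metabolic and signalling genes formed the next group. Tbc1d4, a Rab GTPase-activating protein that controls glucose transporter traffic, had 432 UMIs (157 CPM) in rescued and 265 UMIs (381 CPM) in control cells, a log2 ratio of -1.28 (-1.50 to -1.05). Without cells over 10000 UMIs its ratio was -0.94. Ugcg, the enzyme that makes glucosylceramide, was at 38.3 against 109 CPM (-1.52), and the predicted gene Gm12840 at 100.2 against 249 CPM (-1.31).

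The 3 remaining lower genes rested on few control cells. Lgals3 (galectin-3, a sugar-binding protein) had 52 UMIs (18.9 CPM) in rescued and 63 UMIs (90.7 CPM) in control cells, a log2 ratio of -2.26 (-2.82 to -1.71). Only 12 control cells held it, and 3 of them, with 23, 13 and 11 UMIs, held 74.6%. With the scaled threshold the ratio of Lgals3 was -0.65. Ccl5, a chemokine of effector and memory T cells, had 497 UMIs (181 CPM) against 362 UMIs (521 CPM), a log2 ratio of -1.52 (-1.72 to -1.33). A single control cell held 157 of the 362 UMIs, and 13 control cells held them all. Without the cell with the most Ccl5 UMIs in each set the ratio was -0.87, and in cells of at most 10000 UMIs it was -0.58. Sostdc1, a secreted BMP and Wnt antagonist found in follicular T cells, had 81 UMIs against 55 (-1.42, -1.94 to -0.90), and its control UMIs came from 3 cells with 36, 16 and 3. Without the top cell of each set the ratio was -0.14, and with the scaled reporter threshold it was 0.12.

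The other genes past 2-fold were also examined. The 9 further higher genes ran from 1.00 for Lrrc32, which encodes GARP, the docking receptor for latent TGF-beta, to 1.16 for Sdc4, a heparan sulphate proteoglycan. Between them lay Tnfrsf13b (1.03), which encodes the BAFF and APRIL receptor TACI, Irf8 (1.04), an interferon regulatory factor, Epcam (1.09), an epithelial adhesion molecule, and Tmem154, Atp2b4, Pde2a and Zcchc18. The 3 further lower genes were Stt3b (-1.12), a catalytic subunit of N-glycosylation, Banp (-1.10), and Igf2r (-1.05), the mannose-6-phosphate receptor. Each of these rested on at most 66 control UMIs. Areg, which encodes the tissue repair factor amphiregulin, was below the level filter and was singled out after its values were seen, with 206 UMIs (75.1 CPM) in rescued and 4 UMIs (5.76 CPM) in control cells, a log2 ratio of 3.70 (2.33 to 5.59), and a single rescued cell held 109 of the 206 UMIs.

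To place the reporter-high difference, the same contrast was made in reporter-silent cells, the 1496 rescued and 1347 control cells with no reporter UMI. Silent here means that no UMI was counted, not that the cell was unlabelled. The study imputed the reporter transcript because of dropout. By its flow cytometry most rescued but only a minor part of control Treg cells carried the reporter at this time. The silent rescued set can thus hold many labelled cells, and the silent control set mostly unlabelled ones. Among the 3511 genes tested there, 46 were at least 2-fold higher (1.31%) and 29 at least 2-fold lower (0.826%) in rescued cells. Of the 20 genes higher in reporter-high cells, 16 were also at least 2-fold higher in silent cells and all 20 had the same sign. Of the 14 lower genes, 7 were also at least 2-fold lower in silent cells, 11 had the same sign and 3, Lgals3, Ccl5 and Sostdc1, had the opposite sign. In the other direction, 76 of the 3613 genes tested in reporter-high cells were at least 2-fold higher in silent cells, and 16 of those reached 2-fold in reporter-high cells, while 20 were at least 2-fold lower in silent cells, and 7 of those reached 2-fold in reporter-high cells. The silent sets were deeper in total, with 6053678 rescued and 4983594 control UMIs, and shallower per cell, with medians of 3603 and 3508 UMIs. The differences between the 2 contrasts were not tested.

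**Figure D3:**
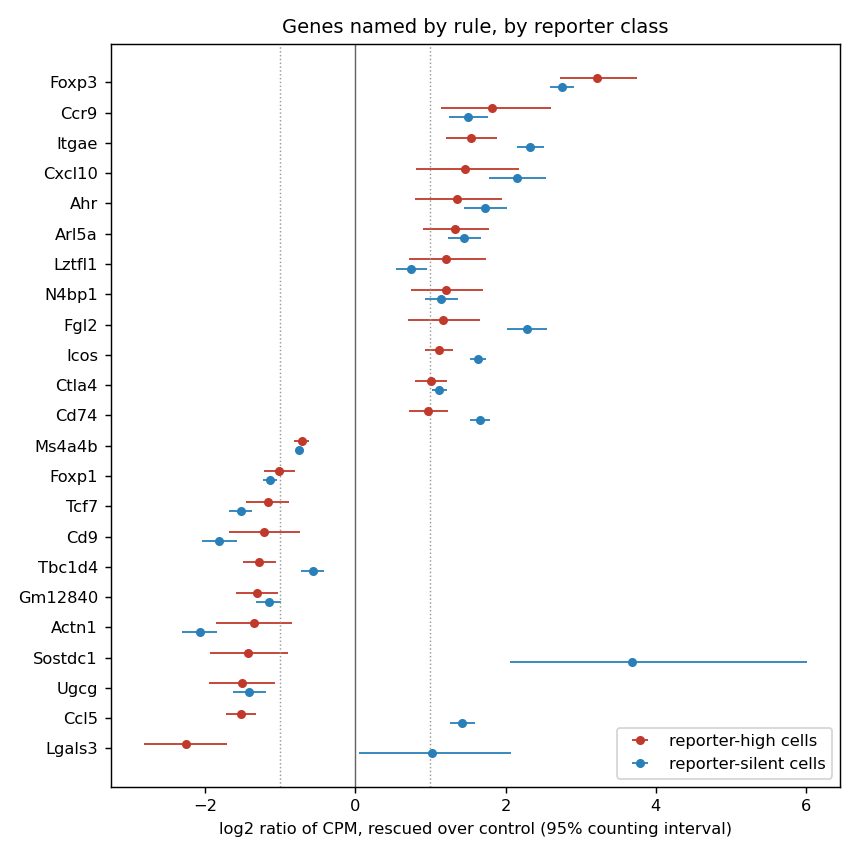
Log2 ratio of CPM, rescued over control (x axis), of the genes named by rule (y axis) in reporter-high cells (red) and reporter-silent cells (blue), with 95% counting intervals as bars. Lgals3, Ccl5 and Sostdc1 lie on opposite sides of 0 in the 2 contrasts, and Foxp3 lies at 3.21 and 2.75.

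Gene lists were then described by their counts and medians. The median ratio over all genes tested was 0.0065, and 1849 of the 3613 were higher and 1764 lower in rescued cells. A list count near that share does not set the list apart from all genes. The study named 10 genes for Treg activation from these libraries, so their direction is not independent evidence. Of these, 9 passed the level filter, 8 were higher and 1 lower in rescued reporter-high cells, and 4 were at least 2-fold higher, Itgae, Ahr, Icos and Ctla4. The median was 0.88, against 1.21 in silent cells, and in cells of 3000 to 10000 UMIs it was 0.49. Cxcr3, a receptor of inflamed-tissue homing, was at 210 against 114 CPM (0.88), and Tnfrsf18, which encodes GITR, at 678 against 494 CPM (0.46). Maf, a transcription factor of effector Treg cells, was at 837 against 671 CPM (0.32). Cd44, an adhesion receptor of antigen-experienced cells, was at 139 against 128 CPM (0.12, -0.22 to 0.47), an interval that holds 0. Ccr6, a receptor for CCL20, went the other way, with 40.1 CPM in rescued and 74.8 CPM in control cells (-0.90, -1.39 to -0.40), and under the scaled threshold the ratio was -0.16.

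All 4 genes the study used for the resting state, in part from these libraries, had lower levels in rescued cells. Their median ratio was -0.999 (silent cells -1.40), and 2 were at least 2-fold lower. Ccr7, which guides cells into lymph nodes, was at 64.1 against 128 CPM (-0.998, -1.37 to -0.61), and Klf2, which sustains recirculation, at 361 against 544 CPM (-0.59). A broader list of quiescence genes behaved unevenly. Of its 10 members tested, 8 were lower and 2 higher, with a median of -0.12 (silent cells -0.66), and 4 intervals lay below 0. Those were of Foxp1, Actn1, Id3 at 209 against 314 CPM (-0.59) and Txnip (-0.17). Lef1, the partner of TCF1 in naive T cells, was at 137 against 131 CPM (0.07, -0.27 to 0.42), S1pr1, which drives exit from lymph nodes, at 106 against 104 CPM (0.03), and Satb1 at 109 against 119 CPM (-0.13). In silent cells these 3 had ratios of -0.86, -1.33 and -1.52. The reporter-high value of Satb1 joined 2 opposite differences. Its ratio was -0.42 (-0.82 to -0.01) at 8 to 15 reporter UMIs. At 16 or more it was 1.29 (0.27 to 2.54), with 8 control UMIs.

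All 5 genes named by the study for a persisting Treg subset were higher, with a median of 0.59 (silent cells 0.80). Epcam was at 101 against 47.5 CPM and Lrrc32 at 149.7 against 74.8 CPM, both past 2-fold. Ifngr1, the interferon-gamma receptor chain, was at 486 against 328 CPM (0.57), Il4ra at 120 against 79.2 CPM (0.59) and Il2ra, the alpha chain of the IL-2 receptor, at 296 against 242 CPM (0.29, 0.05 to 0.54). The study chose this list with these libraries, so its direction is not independent evidence either.

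**Figure D4:**
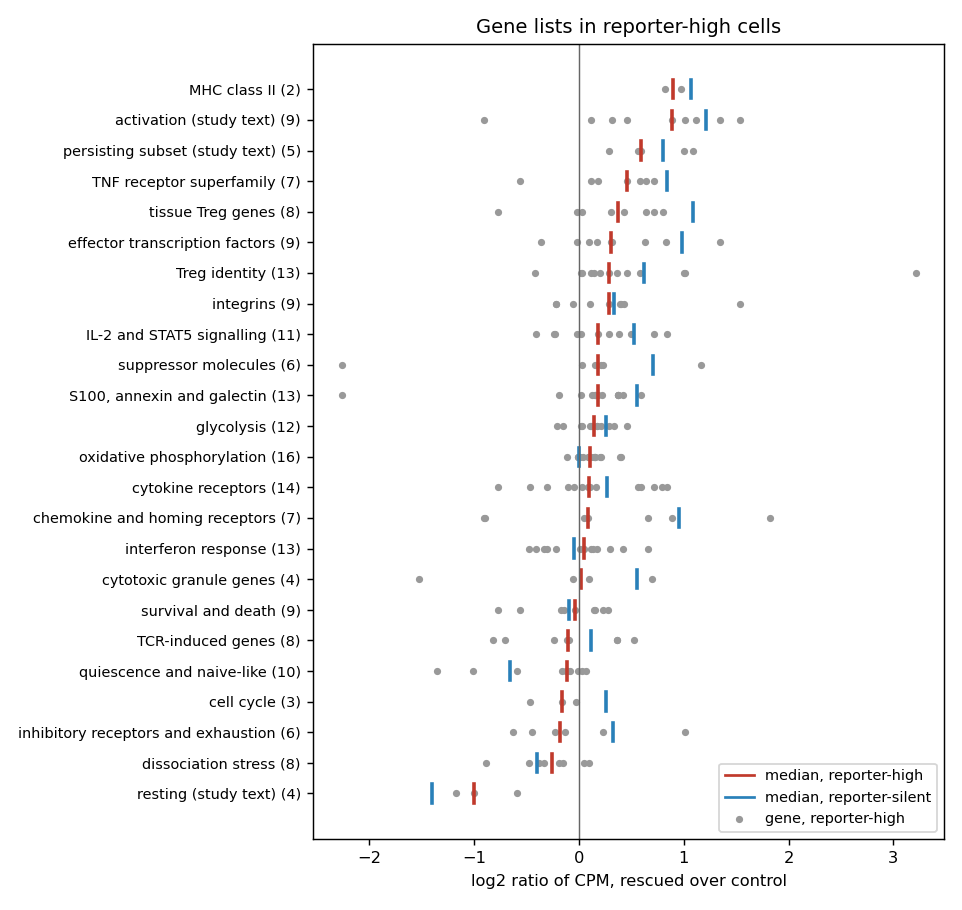
Log2 ratio of CPM, rescued over control (x axis), of each tested gene in reporter-high cells (grey points) by list (y axis, number tested in brackets, 1 resting gene not drawn), with the median in reporter-high (red) and reporter-silent (blue) cells. The resting list lies lowest, at -0.999, and the activation list lies at 0.88.

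Of 13 Treg identity genes tested, 12 were higher and 1 lower, with a median of 0.29 (silent cells 0.62), and 3 passed 2-fold, Foxp3, Ctla4 and Lrrc32. The remaining members differed less. Tnfrsf4, which encodes OX40, was at 1097 against 731 CPM (0.59), Nrp1, a marker of thymus-derived Treg cells, at 440 against 383 CPM (0.20), Izumo1r (folate receptor 4) at 1425 against 1291 CPM (0.14) and Ikzf2 at 0.12 (0.03 to 0.21). Ikzf4, which encodes Eos, was the lower member at 155 against 207 CPM (-0.42). Of 7 TNF receptor family genes, 6 were higher, with a median of 0.46 (silent cells 0.84). Tnfrsf1b, which encodes TNFR2, was at 229 against 140 CPM (0.71) and Tnfrsf9, which encodes 4-1BB, at 254 against 163 CPM (0.64), while Fas was at 58.7 against 86.4 CPM (-0.56).

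Effector and tissue genes were also mostly higher. Of 9 effector transcription factors, 7 were higher (median 0.31, silent cells 0.98), with Prdm1, which encodes Blimp-1, at 74.3 against 41.7 CPM (0.83) and Ikzf3 at 167 against 108 CPM (0.63). Of 8 genes of tissue Treg cells, 6 were higher (median 0.37, silent cells 1.09), with Klrg1 at 92.9 against 53.3 CPM (0.80) and Il1r2, the decoy receptor for IL-1, at 89.6 against 54.7 CPM (0.71). With the scaled reporter threshold these ratios were 2.58 and 2.75, and at 8 to 15 reporter UMIs that of Klrg1 was -0.02 (-0.57 to 0.56). Il18r1, the IL-18 receptor chain, was at 74.3 against 127 CPM (-0.77, -1.14 to -0.39). Among 9 integrins, 6 were higher (median 0.28, silent cells 0.33), and Itgb7, the partner chain of Itgae, was at 698 against 531 CPM (0.40). The 7 homing receptors divided, with 5 higher and 2 lower (median 0.09, silent cells 0.96). Ccr2 was at 121 against 76.3 CPM (0.66, or 1.52 under the scaled threshold) and Cxcr4, the CXCL12 receptor, at 49.6 against 92.1 CPM (-0.89). Only 10 control cells held Ccr2, and its lowest ratio under any alternative was 0.19. At 8 to 15 reporter UMIs the ratio of Ccr2 was 0.07 (-0.41 to 0.57). At 16 or more it was 2.25 (1.09 to 3.71), with 6 control UMIs.

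Suppressor molecules had 5 of 6 tested genes higher (median 0.18, silent cells 0.71), led by Fgl2 and with Tgfb1 at 294 against 255 CPM (0.21, -0.03 to 0.45), Lgals3 being the lower one. Of 4 cytotoxic granule genes tested, 2 were higher (median 0.02, silent cells 0.55). Gzmb (granzyme B) was at 72.5 against 44.6 CPM (0.70, 0.15 to 1.30), but 1 rescued cell held 97 of the 199 rescued UMIs, and the ratio was -0.54 in cells of 3000 to 10000 UMIs and 2.57 under the scaled threshold. Of 13 S100, annexin and galectin-type genes 11 were higher (median 0.18, silent cells 0.55), with S100a11 at 918 against 607 CPM (0.60). S100a4 was at 1023 against 1006 CPM (0.02, -0.10 to 0.15), which joined 2 opposite differences. Its ratio was -0.49 (-0.64 to -0.35) at 8 to 15 reporter UMIs and 0.93 (0.67 to 1.20) at 16 or more. Both tested MHC class II genes were higher (median 0.90, silent cells 1.07), with H2-DMa at 115 against 64.8 CPM (0.83).

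The signalling and inhibitory lists had medians between -0.18 and 0.18. Of 11 IL-2 and STAT5 genes, 7 were higher (median 0.18, silent cells 0.52), 4 of them with intervals above 0. Among the higher ones were Cish at 181 against 101 CPM (0.84), Pim1 at 590 against 360 CPM (0.71) and the feedback gene Socs3 at 189 against 134 CPM (0.50). Socs2 was at 0.38 (-0.13 to 0.92). The 4 lower ones included 2 with intervals below 0, and Stat5b was at 84.5 against 112 CPM (-0.41, -0.79 to -0.02). Of 14 cytokine receptors 9 were higher (median 0.10, silent cells 0.27), led by Tgfbr1 at 155 against 86.4 CPM (0.84) and Il10ra at 70.0 against 40.3 CPM (0.80), while Il6ra was at 108 against 150 CPM (-0.47). T cell receptor-induced genes were lower in 5 of 8 cases (median -0.10, silent cells 0.11). Rel, an NF-kB subunit, was at 70.3 against 124 CPM (-0.82) and Tnfaip3, which encodes A20, at 53.9 against 87.8 CPM (-0.70), whereas Egr1 was at 80.9 against 56.1 CPM (0.53, or 1.26 without cells holding markers of other cell types). Inhibitory receptors and exhaustion genes were lower in 4 of 6 cases (median -0.18, silent cells 0.33), and 3 of the 6 intervals held 0. The intervals below 0 were of Pdcd1, which encodes PD-1, at 107 against 166 CPM (-0.63, -0.95 to -0.31) and Tox at 150 against 204 CPM (-0.45). The higher members were Ctla4 (1.01, 0.80 to 1.23), with the largest ratio of the list, and Lag3 (0.23, -0.14 to 0.60).

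The remaining lists had medians between -0.26 and 0.14. Glycolysis genes were higher in 10 of 12 cases (median 0.14, silent cells 0.25) and oxidative phosphorylation genes in 12 of 16 (median 0.10, silent cells 0.0053), and no gene of either list passed 2-fold. Interferon-response genes were higher in 8 of 13 cases (median 0.05, silent cells -0.05), and survival genes in 4 of 9 (median -0.04, silent cells -0.10), among which the anti-apoptotic Bcl2 was at 195 against 332 CPM (-0.77, -0.99 to -0.54). All 3 cell cycle genes that passed the level filter were lower (median -0.16, silent cells 0.26), and only the interval of Pcna lay below 0 (-0.47, -0.88 to -0.03). Dissociation stress genes were lower in 6 of 8 cases (median -0.26, silent cells -0.40), with the heat shock gene Hspa1b at 49.2 against 90.7 CPM (-0.88). The part of cell handling in the differences was not tested.

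The levels were then followed across cells by reporter count, as 0, 1 to 3, 4 to 7, 8 to 15, and 16 or more UMIs per cell. Reporter UMIs and cell depth moved together, with medians from 3603 to 6025 UMIs per cell over these classes in the rescued and from 3508 to 5360 in the control library. The part of depth in what follows was not tested. The classes of 1 to 3 and 4 to 7 reporter UMIs held 1819 and 367 of the 3634 control cells. By the study's flow cytometry only a minor part of control Treg cells carried the reporter. These control classes can thus hold many unlabelled cells, and the reporter class is not a measure of labelling. The source of their reporter UMIs was not tested. In rescued cells Foxp3 was at a like level in every class, between 428 and 484 CPM. In control cells it was at 72.2, 86.4, 92.0, 61.7 and 11.4 CPM, and the highest class held 2 Foxp3 UMIs over 21 cells. A cell count this small sets wide limits, and the log2 ratio of 5.24 in that class had an interval of 3.37 to 8.29. The same 21 control cells held Ikzf2 at 1853 CPM, against 1084 CPM in silent control cells, Tnfrsf18 at 580 against 336 CPM and Ctla4 at 256 against 224 CPM, while Il2ra was lower there than in silent control cells, at 176 against 249 CPM.

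**Figure D5:**
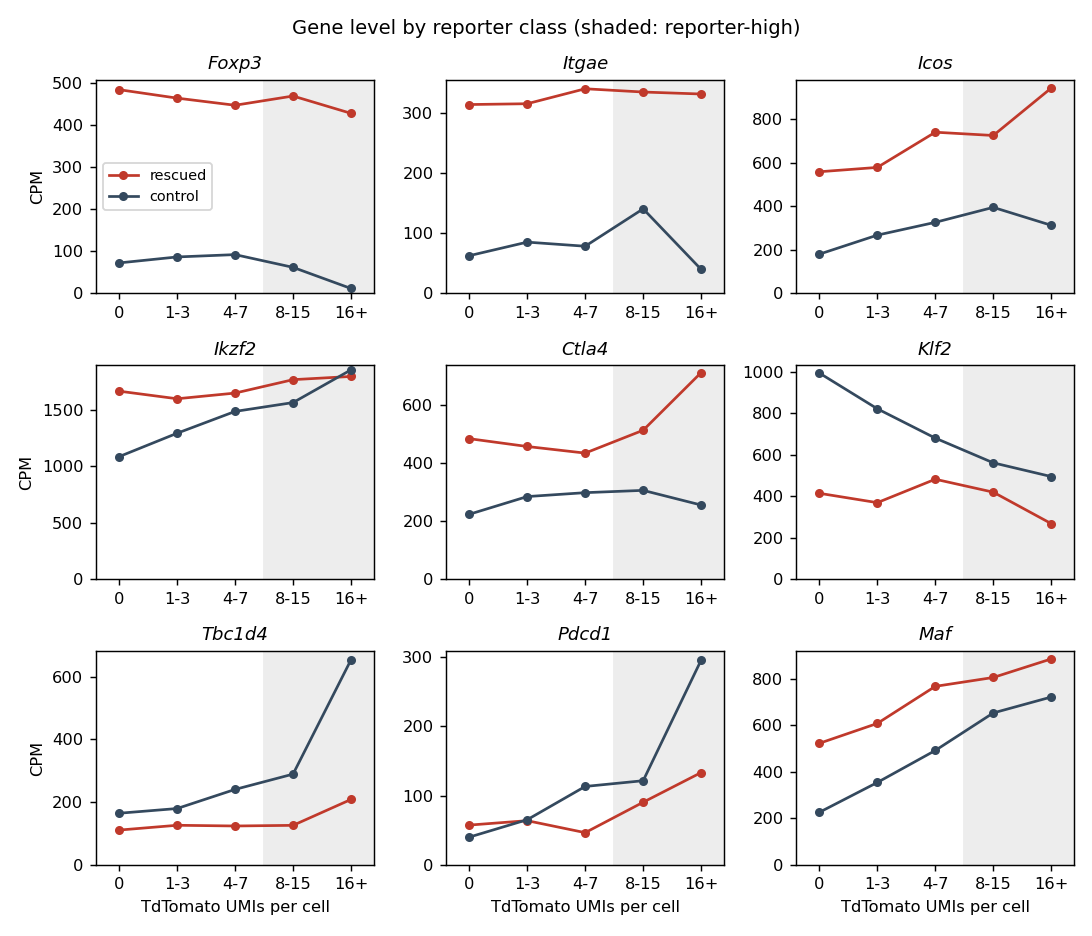
CPM (y axes) of 9 genes in cells grouped by TdTomato UMIs (x axes) in the rescued (red) and control (dark) libraries, with the reporter-high classes shaded. Foxp3 lies between 428 and 484 CPM in rescued cells and between 11.4 and 92.0 CPM in control cells, and Klf2 is lower in each higher class of control cells.

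Several control levels moved with the reporter class. Klf2 went from 994 CPM in silent control cells through 822, 680 and 561 to 495 CPM in the highest class, and in rescued cells it was at 414, 369, 482, 419 and 267 CPM. Its log2 ratio was -1.26 in silent cells, -0.42 at 8 to 15 and -0.89 at 16 or more reporter UMIs. Maf went from 226 CPM in silent control cells through 354, 492 and 653 to 722 CPM, and in rescued cells from 523 to 886 CPM. Its log2 ratio was 1.21 in silent cells and 0.30 in both reporter-high classes. Cxcr3 went from 61.2 CPM in silent control cells to 116 and 108 CPM in the reporter-high classes, while in rescued cells it was between 181 and 228 CPM. Itgae did not take such a course, with 62.6, 85.2, 78.4, 141 and 39.8 CPM in control cells against 315 to 341 CPM in rescued cells. Tcf7 was at 249, 237, 232, 197 and 335 CPM in control cells and between 71.3 and 119 CPM in rescued cells.

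Some genes had their highest control values in the class with the most reporter. Tbc1d4 was at 164 CPM in silent control cells, 289 CPM at 8 to 15 reporter UMIs and 654 CPM at 16 or more, against 126 and 208 CPM in the rescued reporter-high classes. Pdcd1, which follicular T cells express strongly, was at 39.9 CPM in silent control cells, 121 CPM at 8 to 15 and 296 CPM at 16 or more, against 90.3 and 133 CPM in rescued cells. Bcl6, the transcription factor of follicular helper and follicular regulatory T cells, was added after values were seen. It had 8 UMIs (15.4 CPM) in the control class of 8 to 15 and 14 UMIs (79.6 CPM) in the class of 16 or more, against 20 UMIs (11.8 CPM) and 14 UMIs (13.3 CPM) in rescued cells. Cxcr5, the follicle-homing receptor, also added then, had 10 UMIs (56.8 CPM) in the highest control class and 46 UMIs (43.8 CPM) in the highest rescued class. Its log2 ratio was -0.38 (-1.38 to 0.78) there, but 0.34 (-0.34 to 1.08) at 8 to 15 reporter UMIs and 0.95 in silent cells. Tox2, also added then, had ratios of -0.66 (-1.43 to 0.18) at 16 or more, 0.67 (-0.01 to 1.42) at 8 to 15 and 1.13 in silent cells. The values of the highest control class rest on 21 cells.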

How the data were processed

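Expression was measured in single Treg cells of 1 control and 1 rescued library. The authors aligned the reads with Cell Ranger 3.0 to GRCm38 with the tdTomato coding and 3′ untranslated regions added, and the submitters' processing notes also list Seurat 3.1.5. The deposited counts are whole, not normalized UMI counts of 16098 genes in 7024 cells, with 0 ribosomal protein genes among them. The study states a limit on mitochondrial share that most cells of the deposited table exceed, and it was not applied again. A second deposited table of log2 values was not used, and 0 other columns of per-sample values were set aside.

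Cells were assigned to libraries by the prefix of their names, and reporter-high cells were those with at least 8 TdTomato UMIs. The cells, gene lists and tests were chosen with earlier results of these data known. Counts were summed per set and divided by all UMIs of the set to give CPM. Genes with a mean of at least 50 CPM over the 2 sets were compared, without TdTomato, mitochondrial, ribosomal, immunoglobulin and T cell receptor genes. With 1 library per group no test was run and no p-value is given. Ratios carry conditional exact, shares exact binomial and sums exact Poisson intervals at 95%, which cover counting error only. A gene at 0 was given a bound from 3 counts per set. Named genes were the 12 with the highest lower bound and the 12 with the lowest upper bound, with Foxp3, and up to 5 list genes with the largest ratios, and 1 of the lower genes is not reported here. Further list genes and those shown by reporter count were chosen after their values were seen. Coordinates come from GENCODE M21, matched by symbol. Thinning drew 2000 UMIs per cell and left out 2 rescued and 0 control cells. No doublet caller was applied, except that an alternative removed the 3.5% of each library with the highest Scrublet scores (scanpy 1.11.5). That alternative took out 22 of the 452 rescued and 11 of the 101 control reporter-high cells, a larger share than in the whole libraries. The part of doublets in the differences was not tested. Other alternatives changed the reporter threshold, the scaling, the depth and mitochondrial limits and the filters. The code was tested on simulated data. Python 3.11.15, numpy 2.4.6 and scipy 1.17.1 were used.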

Additional observations from a re-analysis of the deposited data

Results flagged for a closer look

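For 7 of the 114 genes named by rule or by list (6.14%), the rescued to control ratio had opposite directions in reporter-high and reporter-silent cells, with both counting intervals clear of 0. The same held for 28 of all 3613 genes tested (0.775%). The 114 were chosen partly for the size of their ratio. The difference between the 2 contrasts was not tested, as each group had 1 library. The log2 ratio of Lgals3 was -2.26 in reporter-high cells and 1.02 in silent cells, that of Ccl5 was -1.52 and 1.42, and that of Sostdc1 was -1.42 and 3.69. These 3 rested on 12, 13 and 3 control reporter-high cells with a UMI of the gene. Sostdc1 had 3 UMIs in silent control cells. Ccr6 had -0.90 in reporter-high and 0.96 in silent cells, and its control UMIs lay in 28 of 101 reporter-high cells. With the reporter threshold scaled to cell depth the reporter-high ratio of Ccr6 was -0.16. Il18r1 had -0.77 and 0.36, Pdcd1 -0.63 and 0.52, and Pcna -0.47 and 0.26.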

How the results depend on the processing

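No paired analysis was possible because there was only 1 library on each side. The log2 ratio of Foxp3 was between 2.72, with a threshold of 15 reporter UMIs per 10000 UMIs, and 3.58, with 12 or more reporter UMIs. The activation median was between 0.49, in cells of 3000 to 10000 UMIs, and 0.94, the resting median between -1.27 and -0.87, and the persisting-subset median between 0.36 and 0.80. Counts of genes past 2-fold moved most. The 14 lower genes became 7 at 6 or more and 26 at 12 or more reporter UMIs, and the 20 higher and 14 lower genes became 51 and 47 at a mean of 20 CPM, 7 and 6 at 100 CPM, and 3 and 5 when the whole interval had to lie past 2-fold. Without the deepest control cell, chosen after seeing the data, they were 22 and 11.

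Of 1469 single-gene values, 1337 lay within the gene's counting interval and 121 beyond it. Among genes whose interval held 0, 33 values of 13 genes changed sign, and among the others 11 values did. Of the genes named by rule and past 2-fold, Foxp3, Itgae, Ccr9, Icos, Ahr and Ugcg were past it under every alternative, and each of the others fell below it under at least 1. With the scaled threshold Sostdc1 was at 0.12 and Cd69 at -0.0026. In cells of 3000 to 10000 UMIs Lgals1 was at -0.017, Gzmb at -0.54, Pcna at 0.075 and Vim at -0.098, and in cells of at most 10000 UMIs, chosen after seeing the data, Gzmb was at -0.47, Pcna at 0.048 and Vim at -0.091. Lgals1 was at -0.0015 without the highest Scrublet scores and at -0.024 without cells holding other cell types' markers. The causes were not tested. The 694763 control UMIs limit precision, and a gene at 50 CPM in control cells rests on few molecules.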
